A study of Mus musculus with 14 samples.

Results

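The 35 genes described here encode the enzymes that remove superoxide and peroxides, make and use glutathione, and keep thiols reduced, together with the transcription factor NRF2 and its inhibitor KEAP1. They were chosen by name, and all 35 were found among the 55414 genes of the count table. Granulosa cells (GCs), the somatic cells that surround the oocyte, were released from antral follicles of chow-fed female mice aged 12 weeks, and each of 14 RNA-seq libraries pooled about 50 cells. The groups were db/db mice (B6.BKS(D)-Leprdb/J), which lack the long isoform of the leptin receptor (n = 4 libraries), ob/ob mice (B6.Cg-Lepob/J), which lack leptin (n = 3), and the lean controls of each colony, called CT db (n = 4) and CT ob (n = 3). Both mutations act in the whole animal, so GCs of obese mice were exposed to obesity as well as to altered leptin signalling. The labels call the controls wild type, whereas the columns of the count table name them heterozygous, and the sources used here do not settle which is right. The question was whether this protective system differed between GCs of obese mice and those of their lean controls, and between the 2 models.

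Superoxide, a by-product of mitochondrial respiration and of steroid synthesis, is converted by superoxide dismutases into hydrogen peroxide. Catalase, the glutathione peroxidases and the peroxiredoxins then reduce the peroxide, the glutathione peroxidases at the expense of glutathione and the peroxiredoxins at the expense of thioredoxin. NADPH recharges both carriers through glutathione reductase and the thioredoxin reductases. GCs of antral follicles make oestradiol and supply the oocyte with glutathione through gap junctions.

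Some of these enzymes depend on selenocysteine, an amino acid that is inserted at a TGA codon which would otherwise end translation. The coding windows around that codon are shown for the 5 selenoenzymes among the genes, since this residue sets them apart from the other family members. The letters were read from GRCm39, all on the plus strand and all inside coding exons, and the codon is in capitals.
Gpx1, chr9:108216626-108216655: ctcattgagaatgtcgcgtctctcTGAggc
Gpx3, chr11:54798058-54798087: ctctttgtcaacgtagccagctacTGAggt
Gpx4, chr10:79890547-79890576: atcgtcaccaacgtggcctcgcaaTGAggc
Txnrd1, chr10:82731847-82731876: ggagacatcctccagtctggctgcTGAggt
Txnrd2, chr16:18296498-18296527: ctggagcctactgtgactggttgcTGAggc
In the glutathione peroxidases the codon lies within the enzyme, while in both thioredoxin reductases it is the codon before the last residue. With the filter on low counts used below, edgeR called 0 of the 5 in any comparison (at most 6.63% of all genes were called). With no filter it called Gpx3 in ob/ob against db/db (adjusted p = 1.61e-10, edgeR, with 1.54% of all genes called). It also called Gpx3 in CT ob against CT db (adjusted p = 3.00e-07, edgeR, with 4.97% of all genes called). With the filter the adjusted p of Gpx3 was 0.392 and 0.155 in these comparisons (edgeR). Its SE was 0.220 and 0.219 with no filter, smaller than with the filter, as given below. The reason for this difference was not tested. Of the 75-base exonic windows of Gpx3, 80.2% were shared with the overlapping gene Tnip1.

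NRF2 acts through the antioxidant response element, whose core was searched as TGACNNNGC on both strands of the 250 bases before each gene's canonical start. The core was found in 5 of the 35 windows (Sod1, Prdx1, Prdx6, Txnrd1 and Gclm), and in 2092 of 21627 windows of protein-coding genes (9.67%). The longer element bound by NRF2 with small MAF proteins was found in 0 of the 35 windows and in 0.24% of all windows. The window of Gclm, the modifier subunit of the enzyme that limits glutathione synthesis, is shown because this gene was called below. Its core lies on the minus strand, starts 54 bases before the start site and is in capitals.
Gclm, chr3:122038876-122039125, plus strand: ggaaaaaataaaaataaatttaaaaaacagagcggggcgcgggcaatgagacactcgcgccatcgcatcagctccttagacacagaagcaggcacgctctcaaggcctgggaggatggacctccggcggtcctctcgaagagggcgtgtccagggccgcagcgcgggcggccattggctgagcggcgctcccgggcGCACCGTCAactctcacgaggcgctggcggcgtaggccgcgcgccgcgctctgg
Such a match describes the sequence and is not evidence of binding.

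Depth moved with genotype: the ob/ob libraries were the deepest (5306632 to 8367593 counts) and the db/db libraries the shallowest (2204686 to 3059777), while those of the lean mice held between 3624237 and 4847166. Detection was limited by depth, and 3 counts, taken as the detection floor, corresponded to between 0.369 and 1.30 CPM, the counts scaled to library size and by the trimmed mean of M-values (TMM). All 12 granulosa markers exceeded a mean of 1 CPM in every group. However, their summed level was lower in CT ob (11341 to 16374 CPM) than in CT db (18867 to 29547 CPM), db/db (19638 to 26158 CPM) or ob/ob (18666 to 25880 CPM). Gja1 made the largest part of this sum, with means of 16877 CPM in CT db and 6082 CPM in CT ob. The markers split: Amh, Inha, Foxl2 and Amhr2 had higher means in CT ob than in CT db, and the others had lower means. The 10 oocyte markers summed to 3.93 to 261 CPM in the db model and to 73.7 to 1128 CPM in the ob model. The db/db library HOM_24 stood apart, with 12.8% of counts on an 18S ribosomal RNA gene and 9 theca and stroma markers summing to 338 CPM, against 23.8 to 83.7 CPM in the other db/db libraries. It also had the highest db/db sums of luteal (139 against 42.8 to 76.8 CPM) and macrophage markers (26.4 against 3.46 to 9.99 CPM). The same held for surface epithelium (59.7 against 29.3 to 34.0 CPM) and endothelial markers (10.2 against 3.12 to 9.52 CPM), but not for oocyte or erythrocyte markers. Insl3, a theca marker, was at 0 in CT db and CT ob. The CT ob library obHet_68 also stood apart, with 24.5% of counts on the 18S gene, and after TMM scaling the 35 genes summed to 7474 CPM there, against 5368 to 6488 CPM in the other libraries. Fewer cells of a type and less RNA per cell cannot be told apart in pooled cells. Leptin had 0 to 3 counts per library and the leptin receptor gene, counted over all its isoforms, had 0 to 17, so neither gene checks the genotypes.

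The antioxidant genes took a similar share of the raw counts in every library. Together the 35 genes received 0.556% to 0.684% of all counts in a library. These counts include the 18S gene, which took 1.10% to 24.5% of them. After TMM scaling the sum of the 35 genes ran from 5368 to 7474 CPM, the highest in obHet_68. Per kilobase of exon, Prdx1, a cytosolic peroxiredoxin, had the highest mean level (259 CPM per kb, range 225 to 310 over the 14 libraries). It was followed by Txn1, the cytosolic thioredoxin that recharges it (159 CPM per kb), and by Gpx1, the cytosolic glutathione peroxidase (131 CPM per kb). Exonic windows of 75 bases were shared with other genes for 71.9% of Gpx1, 78.6% of Sod1, mostly with Scaf4, and 79.9% of Gpx4, so the levels of these genes depend on how shared reads were assigned. With the length of the canonical transcript instead, Txn1 came first (443 CPM per kb) and Prdx1 next (403 CPM per kb), and the ranges of these neighbours overlapped. Prdx1 itself measured 945 to 1271 CPM in CT db, 934 to 1077 CPM in db/db, 1010 to 1291 CPM in CT ob and 1080 to 1111 CPM in ob/ob.

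At the low end were Srxn1, the sulfiredoxin that repairs over-oxidised peroxiredoxins, and Nqo1, a quinone reductase widely used as a readout of NRF2. Srxn1 had the lowest level per length (0.319 CPM per kb). It measured 1.49, 2.2, 2.81 and 4.36 CPM in CT db and 0.430, 0.937, 1.30 and 3.83 CPM in db/db. The ob model gave 3.24, 4.99 and 8.19 CPM in its controls and 1.11, 1.90 and 5.17 CPM in ob/ob, so the groups overlapped in both models. Nqo1 had 0 to 12 counts per library, so its level was not distinguished from the floor in most libraries. The filter on low counts (edgeR's filterByExpr, minimum count 10) retained 33 of the 35 genes in the db model, where Srxn1 and Nqo1 were removed, and 34 in the ob model and in the fit of all 14 libraries.

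**Figure D1:**
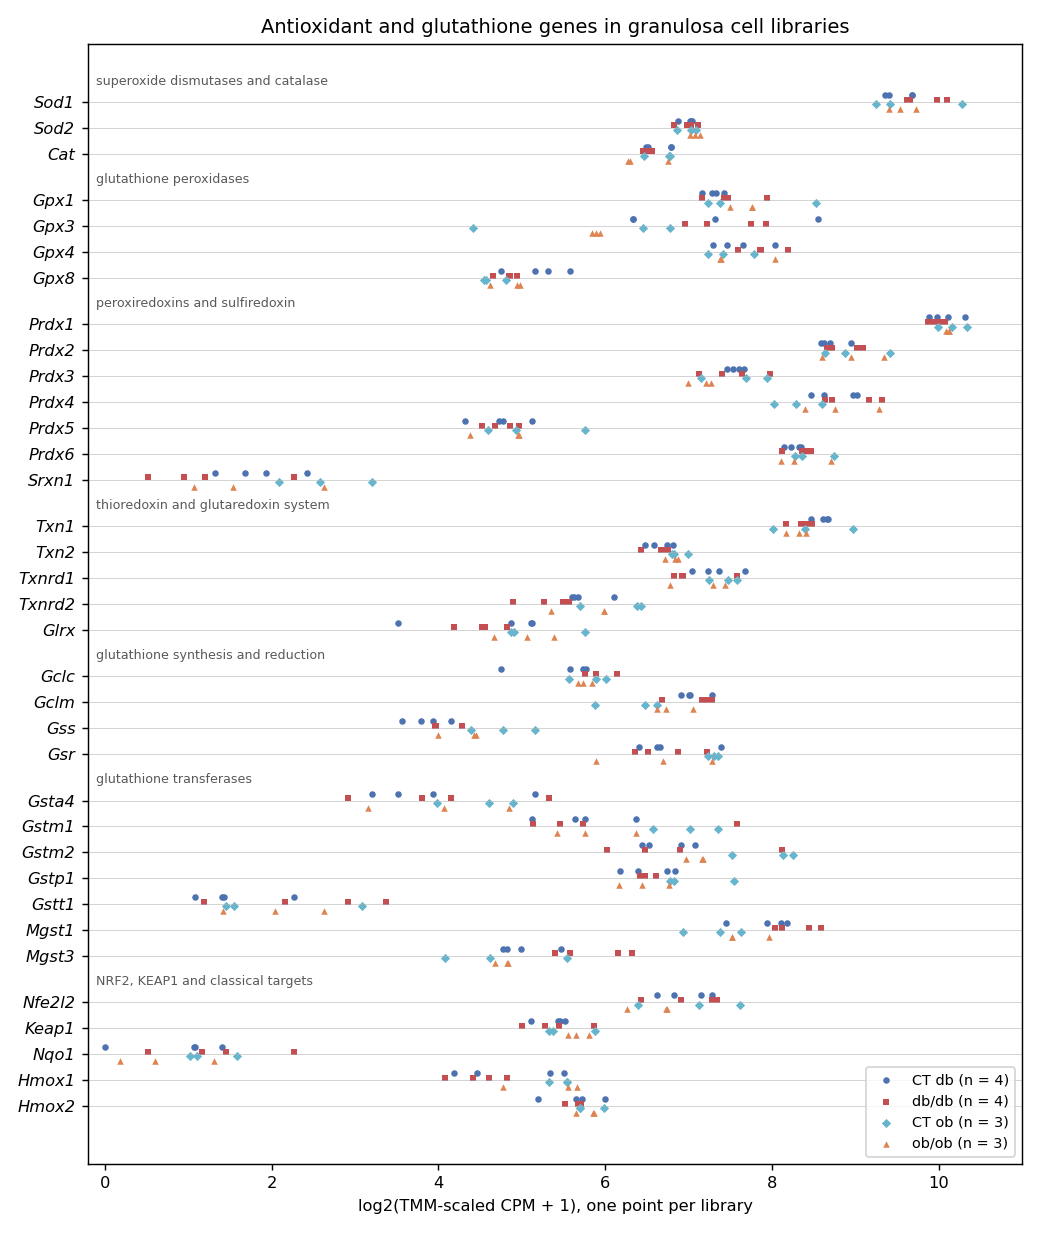
Level of each of the 35 genes on the log2(TMM-scaled CPM + 1) axis, grouped by role, with one point per library and one colour and marker per group. Prdx1 and Sod1 lie near the top of the range in every group, Srxn1 and Nqo1 lie near the floor, and for most genes the points of the 4 groups overlap.

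The genes also differed in how far libraries of a group lay from each other. The within-group SD of log2 CPM had a median of 0.306 over the 34 genes, against 0.349 over all genes tested. The steadiest were Sod2, the mitochondrial superoxide dismutase (SD 0.101), Txn2, the mitochondrial thioredoxin (0.129), and Prdx1 (0.138). The most variable were Gstt1 and Gsta4, transferases of low level (0.881 and 0.869), and Gpx3, the secreted glutathione peroxidase (0.856).

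In db/db against CT db, the levels of most antioxidant genes overlapped between obese and lean mice. With edgeR's quasi-likelihood test, 0 of 33 genes were called at an adjusted p of 0.05 or less, adjusted over all genes tested (0.00884% of all genes were called), 3 had an unadjusted p under 0.05 (7.59% of all genes), and DESeq2 also called 0 (0.389% of all genes). The median log2 fold change was 0.04 over the 33 genes and 0.01 over all genes. Estimates lay above 0 for 19 genes and below 0 for 14, and without HOM_24 for 15 and 18.

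Mgst3, a microsomal transferase with glutathione peroxidase activity, had the smallest p of these genes. It measured 26.4, 27.2, 30.7 and 43.4 CPM in CT db and 41.1, 46.9, 70.0 and 79.1 CPM in db/db. Only the lowest db/db library fell within the range of the controls. The log2 fold change was 0.89 (SE 0.237, adjusted p = 0.413, edgeR).

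In the thioredoxin branch the estimates lay below 0 in db/db, and edgeR called 0 of its genes. All 5 estimates lay below 0 (48.4% of all genes did), that of Txn2 turning to 0.04 without HOM_24 and 0.05 with library size only, and the 5 genes summed to 722 to 741 CPM in the controls, against 602 to 631 CPM in the mutants. Txnrd2, the mitochondrial thioredoxin reductase, measured 47.5, 48.5, 49.9 and 67.7 CPM in CT db and 28.8, 37.5, 44.1 and 46.4 CPM in db/db. The groups of Txnrd2 did not overlap (4.14% of all genes), and its log2 fold change was -0.45 (SE 0.187, adjusted p = 0.621, edgeR). Txn1 measured 354 to 405 CPM in CT db and 287 to 357 CPM in db/db, with a log2 fold change of -0.25 (SE 0.126, adjusted p = 0.679, edgeR).

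Among the transferases, 6 of 7 estimates lay above 0 in db/db (51.6% of all genes did), those of Gstm1 and Gstm2 only with HOM_24 included. Gstt1, a theta-class transferase, measured 1.12, 1.65, 1.70 and 3.82 CPM in CT db and 1.29, 3.46, 6.56 and 9.37 CPM in db/db, at or near the floor in several libraries. Its log2 fold change was 1.32 (SE 0.573, adjusted p = 0.646, edgeR). For the mu-class transferases Gstm1 and Gstm2 the estimates rested on HOM_24: they were 0.55 and 0.34 with this library and -0.33 and -0.27 without it. Gstm1 measured 190 CPM in HOM_24 and 34.2 to 52.2 CPM in the other db/db libraries, and Gstm2 measured 277 CPM in HOM_24 and 64 to 118 CPM in the others. The summed theca and stroma markers were also highest in HOM_24. In group means, Cyp17a1, the largest of them in db/db, was at 75.6 CPM there and 11.6 CPM in CT db. Insl3, Dcn, Col3a1 and Acta2 also had higher means in db/db. Col1a1 (0.869 against 0.986 CPM), Col1a2 (4.86 against 5.40 CPM), Lum (1.97 against 1.96 CPM) and Pdgfra (8.84 against 8.68 CPM) were close between db/db and CT db. HOM_24 also had the highest luteal, macrophage, endothelial and surface epithelium sums of the db/db libraries. The part of theca, stroma or other cells in the Gstm1 and Gstm2 values was not tested.

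Superoxide dismutases, catalase and peroxiredoxins showed no called difference in db/db. Sod1, the cytosolic superoxide dismutase, measured 653 to 820 CPM in CT db and 782 to 1091 CPM in db/db (log2 fold change 0.31, SE 0.157, adjusted p = 0.681, edgeR). Sod2 measured 116 to 131 CPM in CT db and 112 to 137 CPM in db/db. Gpx8, a peroxidase of the endoplasmic reticulum, measured 25.8 to 46.9 CPM in CT db and 24.2 to 29.8 CPM in db/db (log2 fold change -0.42, SE 0.195, adjusted p = 0.668, edgeR, and -0.27 without het_75).

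In ob/ob against CT ob, Gstm1 and Gstm2 had the smallest p, with lower levels in obese mice. With edgeR, 0 of 34 genes were called (0% of all genes) and 3 had an unadjusted p under 0.05 (8.16% of all genes). DESeq2 called 1, Gstm2 (adjusted p = 0.0490, with 0.692% of all genes called). Estimates lay below 0 for 27 of 34 genes, against 54.0% of all genes tested, and the median log2 fold change was -0.17 over the 34 genes and -0.04 over all genes. This tally rested on obHet_68: without it 16 of 34 estimates lay below 0 (50.6% of all genes) and the median was 0.02. With library size only in place of TMM, 19 lay below 0.

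The 3 genes with the smallest p in this model, Gstm1, Gstm2 and the pi-class Gstp1, encode cytosolic transferases that conjugate glutathione to electrophiles. The other cytosolic transferases among the genes, Gsta4 and Gstt1, had log2 fold changes of -0.37 and -0.12. Gstm1 measured 94.3, 128 and 163 CPM in CT ob and 41.9, 53.1 and 81.5 CPM in ob/ob (log2 fold change -1.13, SE 0.302, adjusted p = 0.539, edgeR). Gstm2 measured 182, 279 and 303 CPM in CT ob and 124, 142 and 143 CPM in ob/ob (log2 fold change -0.90, SE 0.227, adjusted p = 0.539, edgeR). Every ob/ob library lay below every CT ob library for both genes.

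Gstp1 measured 109, 112 and 186 CPM in CT ob and 71.0, 86.1 and 107 CPM in ob/ob. Its groups did not overlap, but by a narrow margin, and the highest control was obHet_68. The log2 fold change was -0.62 (SE 0.266, adjusted p = 0.611, edgeR) and -0.32 without obHet_68. In all, groups did not overlap for 4 of the 34 genes (15.8% of all genes), which were these 3 transferases and Gclm.

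Glutathione synthesis gave estimates of both signs in ob/ob. Gclm measured 57.7, 87.8 and 97.5 CPM in CT ob and 97.7, 105 and 132 CPM in ob/ob, with a log2 fold change of 0.46 (SE 0.236, adjusted p = 0.656, edgeR). Gss, the synthetase of the second step, measured 19.9, 26.3 and 34.8 CPM in CT ob and 15, 20.6 and 20.9 CPM in ob/ob, with a log2 fold change of -0.52 (SE 0.288, adjusted p = 0.674, edgeR). Without obHet_68, the library with the lowest Gclm and the highest Gss of the group, these estimates were 0.27 and -0.30. Gclc, the catalytic subunit, measured 46.4 to 63.5 CPM in CT ob and 50.1 to 56.5 CPM in ob/ob.

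In ob/ob, the 5 genes of the thioredoxin branch had estimates below 0 (54% of all genes did), with 0 called. Their summed level overlapped between ob/ob (628 to 691 CPM) and CT ob (662 to 888 CPM). The shared direction was not stable. Without obHet_68 the estimate of Txn1 went from -0.21 to 0.09, and without obHet_60 that of Glrx went from -0.18 to 0.19. That of Txn2 went from -0.07 to 0.03 with library size only and to 0.01 with no filter. Txnrd2 measured 51, 82.6 and 85.0 CPM in CT ob and 39.9, 62.3 and 62.5 CPM in ob/ob (log2 fold change -0.41, SE 0.271, adjusted p = 0.709, edgeR, and -0.22 without obHOM_41). Among the peroxiredoxins, the mitochondrial Prdx3 measured 126 to 152 CPM in ob/ob and 141 to 244 CPM in CT ob (log2 fold change -0.48, SE 0.228, adjusted p = 0.638, edgeR, and -0.29 without obHet_60). Prdx4, which acts in the endoplasmic reticulum, was estimated in the other direction, at 335 to 620 CPM in ob/ob and 260 to 387 CPM in CT ob (log2 fold change 0.53, SE 0.271, adjusted p = 0.656, edgeR, and 0.26 without obHOM_41).

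NRF2 and KEAP1 transcripts did not separate obese from lean mice in either model. Nfe2l2, which encodes NRF2, measured 97.4, 113, 141 and 154 CPM in CT db and 85.2, 119, 155 and 161 CPM in db/db. In the ob model it measured 82.9, 138 and 196 CPM in CT ob and 75.9, 105 and 105 CPM in ob/ob (log2 fold change -0.55, SE 0.306, adjusted p = 0.676, edgeR, and -0.22 without obHet_60). The groups of Nfe2l2 overlapped in both models.

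Keap1 measured 33.4, 42.3, 43.1 and 44.7 CPM in CT db and 31.1, 37.8, 42.4 and 57.2 CPM in db/db. In the ob model it measured 39.1, 40.4 and 57.7 CPM in CT ob and 46.0, 49.1 and 55.0 CPM in ob/ob. These groups overlapped too, with log2 fold changes of 0.04 in db/db and 0.13 in ob/ob. NRF2 is controlled mainly through its protein stability, which these data do not measure.

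**Figure D2:**
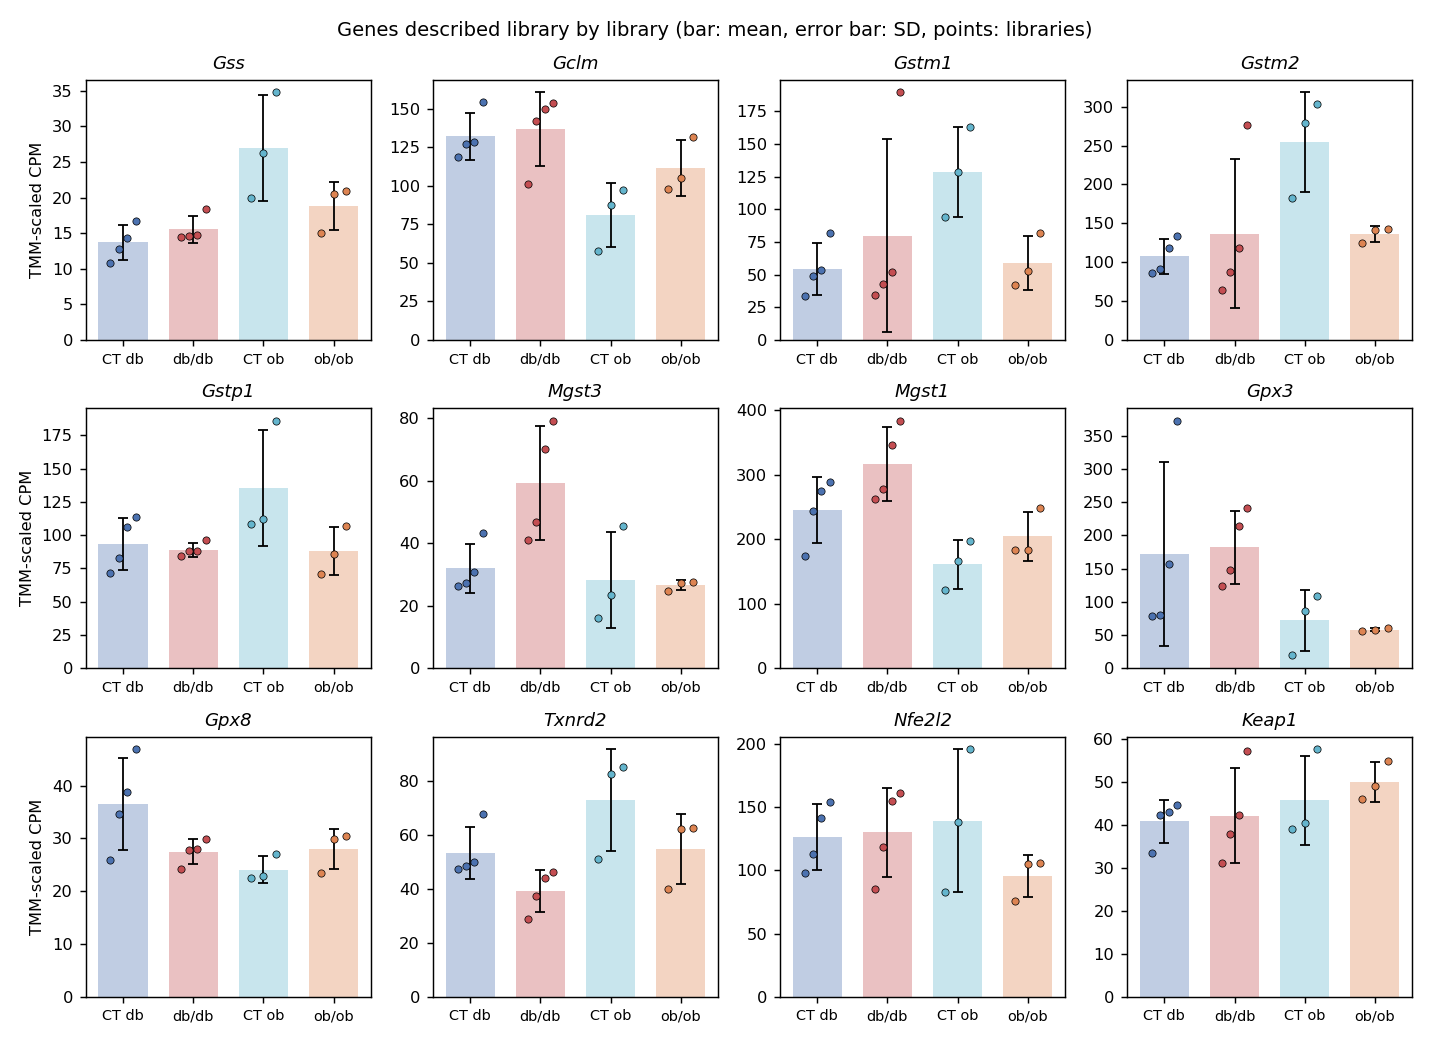
TMM-scaled CPM of 12 genes in the 4 groups, with bars for the mean, error bars for the SD and points for libraries (n = 4 for CT db and db/db, n = 3 for CT ob and ob/ob). Gstm1 and Gstm2 stand higher in all 3 CT ob libraries than in every ob/ob and CT db library, and 1 db/db library, HOM_24, reaches the CT ob level.

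The effects of the 2 mutations were compared in 1 fit as the difference of the log2 fold changes, ob/ob minus CT ob less db/db minus CT db. With edgeR, 0 of 34 genes were called (0% of all genes), 4 had an unadjusted p under 0.05 (8.11% of all genes), and DESeq2 also called 0 (0.572% of all genes). The difference was -1.68 for Gstm1 (SE 0.688, adjusted p = 0.557, edgeR) and -1.25 for Gstm2 (SE 0.524, adjusted p = 0.571, edgeR). Without HOM_24 they were -0.80 and -0.64. For Gpx8 the difference was 0.63 (SE 0.281, adjusted p = 0.595, edgeR), and for Mgst3 it was -0.97 (SE 0.439, adjusted p = 0.595, edgeR) and -0.46 without obHet_68.

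In ob/ob against db/db, the model and the mouse colony cannot be told apart. The summed oocyte markers did not overlap between these groups (145 to 759 CPM in ob/ob and 6.56 to 67.5 CPM in db/db), and their part in the differences below was not tested. With edgeR, 0 of 34 genes were called (0.0159% of all genes), 4 had an unadjusted p under 0.05 (8.19% of all genes), and DESeq2 also called 0 (0.572% of all genes). The 3 genes with the smallest p had estimates below 0 and belong to the membrane-bound transferases and the secreted peroxidase. Groups did not overlap for 4 of the 34 genes (9.91% of all genes), which were these 3 and Prdx1.

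Mgst3 measured 24.6, 27.3 and 27.6 CPM in ob/ob and 41.1 to 79.1 CPM in db/db (log2 fold change -1.16, SE 0.314, adjusted p = 0.336, edgeR). Mgst1, its microsomal relative, measured 183, 183 and 248 CPM in ob/ob and 262, 277, 345 and 384 CPM in db/db (log2 fold change -0.63, SE 0.217, adjusted p = 0.402, edgeR). Gpx3 measured 56.1, 58.0 and 60.1 CPM in ob/ob and 123, 148, 213 and 242 CPM in db/db (log2 fold change -1.65, SE 0.553, adjusted p = 0.392, edgeR). For each of these genes all ob/ob libraries lay below all db/db libraries.

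Hmox1, the inducible haem oxygenase, was the only one of the 4 estimated higher in ob/ob, at 26.4, 45.8 and 49.6 CPM against 15.9 to 27.3 CPM in db/db (log2 fold change 0.90, SE 0.313, adjusted p = 0.403, edgeR). Its constitutive relative Hmox2 measured 49.2 to 57.4 CPM in ob/ob and 44.7 to 51.5 CPM in db/db. Of Hmox2 exonic 75-base windows, 83.5% were shared with the overlapping gene Cdip1, so its counts depend on how shared reads were assigned.

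**Figure D3:**
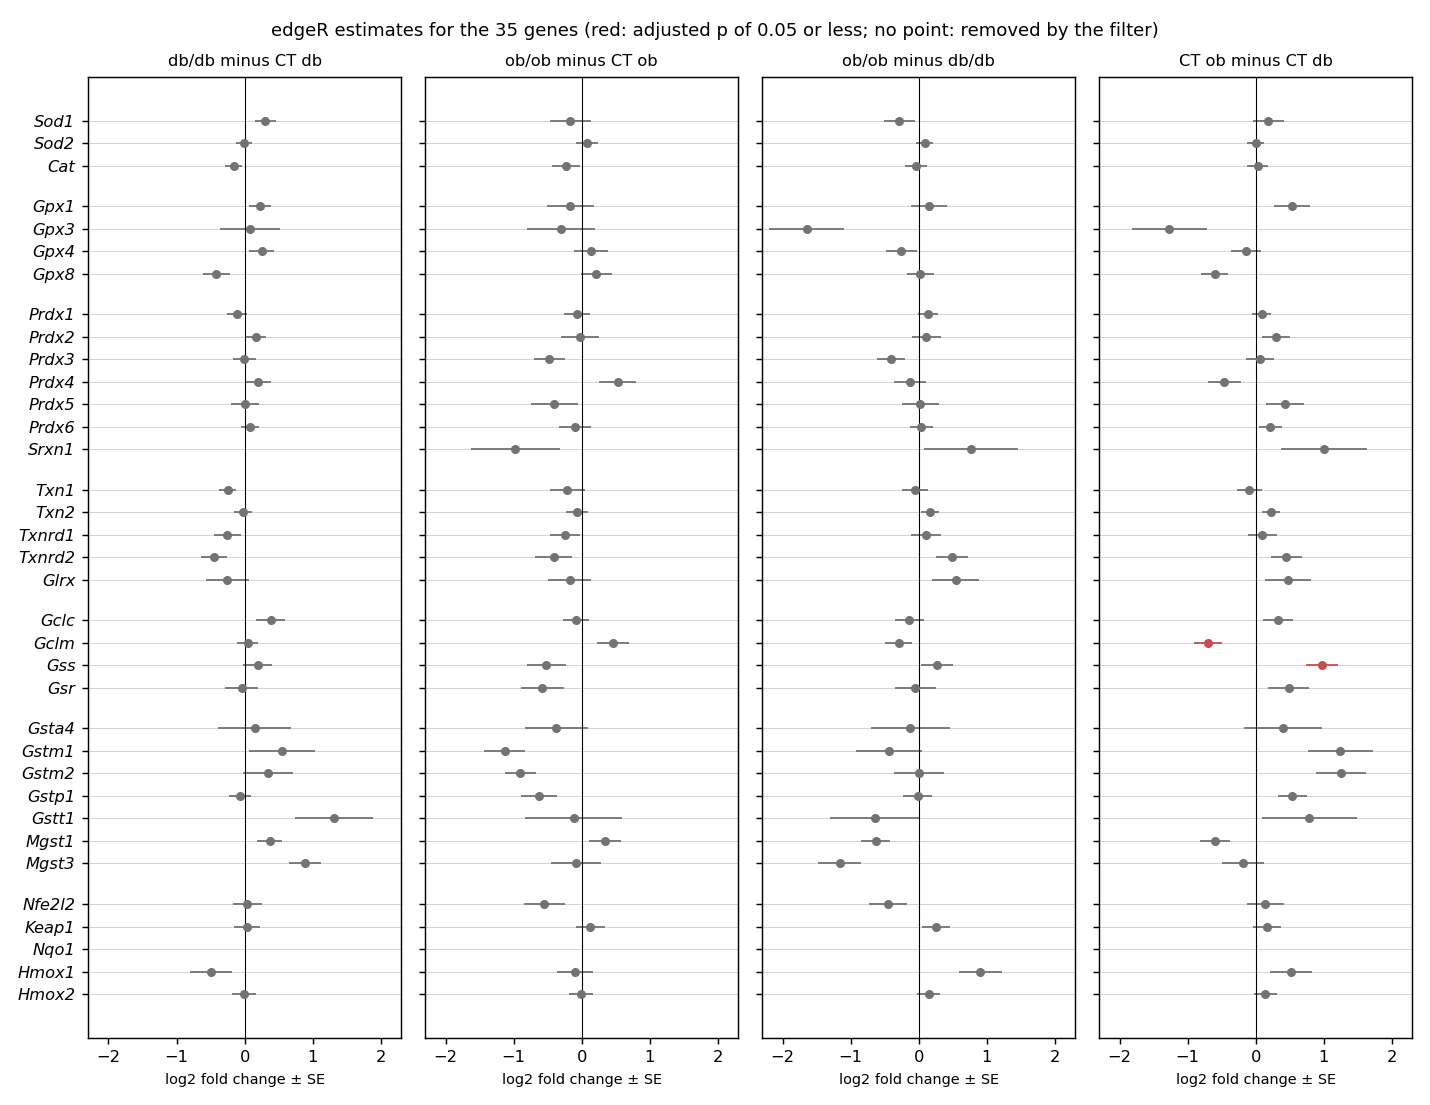
edgeR log2 fold changes (points) with SE (bars) of the genes tested in 4 comparisons, in the order of the plot of levels by library; a gene removed by the filter has no point. Red marks an adjusted p of 0.05 or less, which only Gclm and Gss reached, both in CT ob against CT db; 27 of 34 estimates in ob/ob minus CT ob lie left of 0, against 16 of 34 without obHet_68.

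In CT ob against CT db, the comparison of the lean controls of the 2 colonies, edgeR called 2 of 34 genes (6.63% of all genes, 2.24% higher and 4.39% lower). Gss was higher and Gclm was lower. DESeq2 called 4, these and Gpx8 and Gstm2 (12.4% of all genes). By either tool, the 34 genes were called no more often than all genes tested. With edgeR 8 genes had an unadjusted p under 0.05 (26.9% of all genes), and estimates lay above 0 for 25 of the 34 genes, against 54.1% of all genes, and for 19 of the 34 without obHet_68. Of all calls, 33.8% were higher in CT ob, and 44.8% with upper quartile scaling. Colony and any difference in how the controls were handled cannot be told apart here.

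Gss (chr2:155405096-155455505, minus strand, GRCm39) measured 10.9, 12.8, 14.3 and 16.7 CPM in CT db and 19.9, 26.3 and 34.8 CPM in CT ob. All CT ob libraries lay above all CT db libraries, with a log2 fold change of 0.98 (SE 0.233, adjusted p = 0.0290, edgeR). The gene overlaps Acss2 on the other strand (27.3% of its exonic 75-base windows, 12 to 142 counts of Acss2 per library), and strand was not used in the library preparation. Gss was at 14.5 to 18.4 CPM in db/db and 15 to 20.9 CPM in ob/ob, which overlapped.

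Gclm (chr3:122039126-122065061, plus strand) measured 119, 127, 129 and 154 CPM in CT db and 57.7, 87.8 and 97.5 CPM in CT ob. All CT ob libraries lay below all CT db libraries, with a log2 fold change of -0.70 (SE 0.200, adjusted p = 0.0481, edgeR). Gclm shares no 75-base window with another gene. Gclc, its partner in the same enzyme, measured 25.8 to 53.7 CPM in CT db and 46.4 to 63.5 CPM in CT ob, and was not called (adjusted p = 0.339, edgeR).

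Neither call held when any of het_51, het_75, obHet_60 or obHet_68 was left out, with adjusted p up to 0.113 for Gss and 0.151 for Gclm over all 14 single omissions. Leaving out HOM_53, HOM_68, het_69, obHOM_106 or obHOM_50 ended the call of Gclm alone, as did leaving out HOM_81 or het_37. With only the libraries of the 2 control groups in the fit, 0 genes of the 33 tested were called (3 of all genes).

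The mu-class transferases were estimated higher in CT ob than in CT db by a larger factor than Gss, with a larger error. Gstm2 measured 85.8, 90.8, 119 and 134 CPM in CT db, all below CT ob (log2 fold change 1.25, SE 0.367, adjusted p = 0.0534, edgeR). Gstm1 measured 33.9, 48.6, 53.2 and 81.8 CPM in CT db, again all below CT ob (log2 fold change 1.24, SE 0.480, adjusted p = 0.118, edgeR). Without HOM_24, a db/db library in the same fit, both were called (6.14% of all genes). Gstm2 was also called without HOM_81 (adjusted p = 0.0420, edgeR, 4.92% of all genes) and without obHet_65 (adjusted p = 0.0468, edgeR, 6.41%). The same held with at least 10 counts in every library (adjusted p = 0.0413, edgeR, 10.6%). With no filter both were called (4.97%). Groups did not overlap for 4 of the 34 genes (21.2% of all genes), namely Gss, Gclm, Gstm1 and Gstm2.

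Gpx8, Mgst1 and Gpx3 were estimated lower in CT ob. Gpx8 measured 22.4, 22.8 and 27 CPM in CT ob, against 25.8 to 46.9 CPM in CT db (log2 fold change -0.60, SE 0.200, adjusted p = 0.0769, edgeR). Mgst1 measured 121, 166 and 197 CPM in CT ob and 173, 244, 275 and 289 CPM in CT db (log2 fold change -0.60, SE 0.218, adjusted p = 0.0974, edgeR). Gpx3 measured 20.3, 86.8 and 109 CPM in CT ob and 79.4, 79.5, 158 and 373 CPM in CT db (log2 fold change -1.27, SE 0.548, adjusted p = 0.155, edgeR), and its estimate was -0.56 without het_75. Of Gpx3 exonic windows, 80.2% were shared with the overlapping gene Tnip1, which had 41 to 203 counts per library.

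In this comparison the summed granulosa markers were also lower in CT ob, though Amh, Inha, Foxl2 and Amhr2 among them were higher, as given above. The summed oocyte markers covered higher values in CT ob. The part of both marker lists in these differences was not tested. The theca and stroma markers summed to 24.4 to 174 CPM in CT ob and to 24.2 to 62.2 CPM in CT db. All of these markers but Cyp17a1 and Insl3 had higher means in CT ob. The 5 endothelial markers summed to 8.87 to 31.4 CPM in CT ob and to 3.09 to 8.24 CPM in CT db, without overlap. The part of these 2 lists was not tested either.

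**Figure D4:**
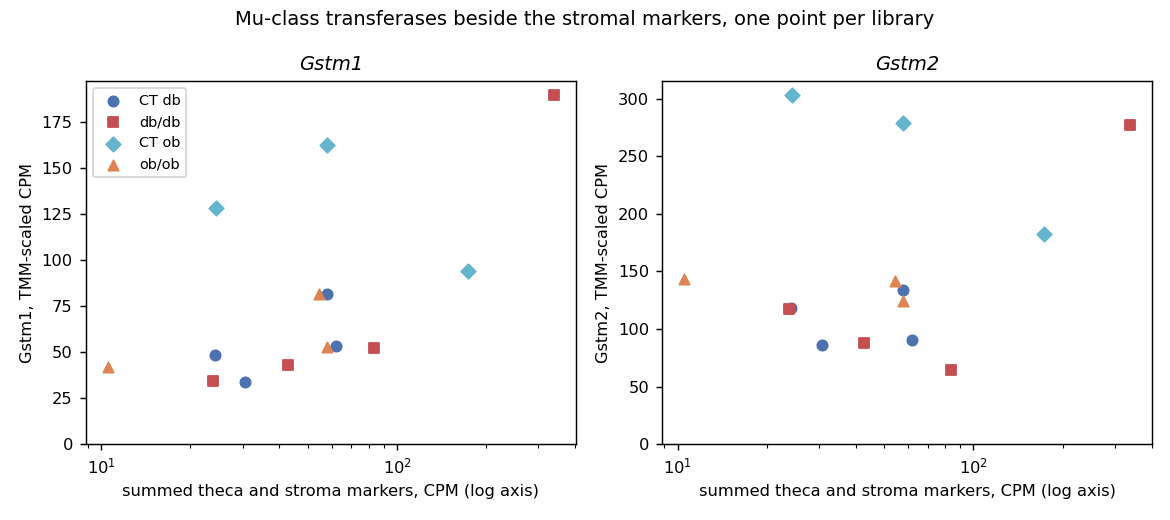
Gstm1 (left) and Gstm2 (right) in TMM-scaled CPM against the summed theca and stroma markers in CPM (log axis), one point per library. HOM_24 lies at 338 CPM of theca and stroma markers with 190 CPM of Gstm1. The CT ob libraries lie at 94.3 to 163 CPM of Gstm1, with sums of these markers of 24.4 to 174 CPM.

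The remaining genes were called in none of the 5 comparisons. Gpx1 measured 142 to 170 CPM in CT db, 142 to 244 CPM in db/db, 179 to 216 CPM in ob/ob, and 149, 165 and 369 CPM in CT ob, where the highest was again obHet_68. Gpx4, which reduces lipid peroxides in membranes, measured 149 to 291 CPM over the 14 libraries. Catalase (Cat) measured 76.1 to 110 CPM, the cytosolic Prdx2 382 to 682 CPM, Prdx5 18.9 to 53.2 CPM and Prdx6 274 to 429 CPM. The groups of these genes overlapped in each of the 4 comparisons of 2 groups.

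Txnrd1, the cytosolic thioredoxin reductase, measured 109 to 204 CPM, and Glrx, a glutaredoxin that uses glutathione to reduce protein thiols, 10.4 to 52.9 CPM. Gsr, which returns oxidised glutathione to its reduced form, measured 83.9 to 166 CPM in CT db, 80.9 to 147 CPM in db/db, 149 to 163 CPM in CT ob and 58.3 to 154 CPM in ob/ob. Gsta4, a transferase for lipid aldehydes, measured 6.56 to 39.2 CPM, which was also its range in db/db, and 14.8 to 28.7 CPM in CT ob. The smallest adjusted p among all these genes was 0.203, for Gpx1 in CT ob against CT db (edgeR).

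The transferases have close copies, so read assignment matters for their counts. Gstm1 shared 13.8% and Gstm2 24.8% of their 75-base windows with other genes, mostly pseudogenes. These copies received few counts (0 to 2 for those of Gstm1 and 0 to 14 for Gm6665, the main copy of Gstm2). Gstp1 shared 51.9% of its windows with Gstp2, which had 0 to 8 counts per library. Mgst3, Mgst1, Gstt1 and Gsta4 shared none.

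The other genes of these pathways were read from lists named by function. Among 8 genes of NADPH supply, edgeR called 1 higher and 1 lower in CT ob than in CT db (6.63% of all genes were called). It called 0 in the other 4 comparisons (at most 0.0159% of all genes). DESeq2 called the same 2 (12.4% of all genes) and, in ob/ob against db/db, G6pdx (0.572% of all genes). G6pdx, the first enzyme of the pentose phosphate pathway and a main source of cytosolic NADPH, measured 38.7, 42.3, 52.2 and 64.9 CPM in CT db and 94.5, 100.3 and 105.8 CPM in CT ob (log2 fold change 1.02, SE 0.195, adjusted p = 0.0139, edgeR). It measured 30.9 to 44.6 CPM in db/db and 60.6 to 86.3 CPM in ob/ob, again without overlap (log2 fold change 0.92, SE 0.198, adjusted p = 0.322, edgeR, and 0.0237 with DESeq2). Nadk2, the mitochondrial NAD kinase, was lower in CT ob (38.6 to 70.7 CPM) than in CT db (82.9 to 120.0 CPM), with a log2 fold change of -0.82 (SE 0.230, adjusted p = 0.0460, edgeR).

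Another list held 27 genes, of which 23 were tested in the fit of all libraries. It joined further peroxidases and thiol reductases with related genes, among them Sod3, Txnip and the sestrins. In this list edgeR called 1, Sesn1, a stress-responsive sestrin, in CT ob against CT db (6.63% of all genes). It was lower in CT ob (31.3 to 33.9 CPM) than in CT db (40.6 to 70.0 CPM), with a log2 fold change of -0.72 (SE 0.203, adjusted p = 0.0462, edgeR). Without obHet_68 and HOM_24, the adjusted p was 0.0570 for G6pdx, 0.155 for Nadk2 and 0.119 for Sesn1. In a fit of the control libraries alone they were 0.0546, 0.102 and 0.114, and the calls of Nadk2 and Sesn1 were also lost with upper quartile scaling and with library size only. Of the single omissions, obHet_68 ended the call of G6pdx (adjusted p = 0.0517, edgeR). The calls of Nadk2 and Sesn1 were both lost without any of HOM_24, HOM_53, het_51, het_75, obHOM_106, obHOM_50, obHet_60, obHet_65 or obHet_68, that of Nadk2 also without het_69, and that of Sesn1 also without HOM_68 or HOM_81. Txnip, which binds and inhibits thioredoxin, had the smallest p of its list in ob/ob against db/db, at 281 to 412 CPM against 511 to 1260 CPM (log2 fold change -1.23, SE 0.327, adjusted p = 0.334, edgeR). DESeq2 called Txnip there (adjusted p = 0.0403, with 0.572% of all genes called).

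In the remaining lists edgeR called 0 genes in the 5 comparisons, and DESeq2 called 3, all in CT ob against CT db (Oplah and Tkt higher, Maoa lower, with 12.4% of all genes called). They were 29 other transferases and glutathione turnover genes (20 tested in the fit of all libraries), 27 NRF2 partners and targets (26), 14 sources of superoxide and peroxide (7), 8 genes of selenoprotein synthesis (8) and 3 metallothioneins (3). In CT ob against CT db, 22 of the 26 NRF2 partners and targets had estimates above 0 (54.1% of all genes), with 8 at an unadjusted p under 0.05 (26.9% of all genes). Without obHet_68, 20 of the 26 lay above 0. In the difference of the mutant effects, 23 of the 26 lay below 0 (53.3% of all genes), with 1 at an unadjusted p under 0.05, and 19 of the 26 lay below 0 without obHet_68. These comparisons share the control libraries.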

How the data were processed

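Granulosa cell RNA was captured on oligo-dT beads, amplified by Smart-seq2 and made into Nextera XT libraries read as single 75-base reads, with no molecular identifiers. The authors deposited raw counts per gene. The submitters' processing notes name Trim Galore 0.6.2, HISAT2 2.1.0 and GRCm38, whereas the study's methods name cutadapt 1.18, STAR 2.7.10a, featureCounts 2.0.1 and GRCm39, and which made the deposited counts was not settled. Strand setting and multimapped reads are not given in the sources used here. Symbols, lengths, sequences and coordinates came from GENCODE M39 (GRCm39).

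Counts were tested with edgeR 4.0.16 in R 4.3.3 (TMM, filterByExpr with minimum count 10 and minimum total 15, quasi-likelihood F test, Benjamini-Hochberg over all genes tested, called at 0.05 or less). Mutants were compared with their own controls in separate fits (11317 and 12425 genes), and the other comparisons came from 1 fit of all 14 libraries (12586 genes). SE was the log2 fold change divided by the square root of F. The alternatives were other scalings, filters, DESeq2 1.42.0, other fits and leaving out libraries, and the code was tested on simulated data. CPM used the TMM factors of the 14 libraries. Correlations between libraries were 0.942 to 0.979 and no 2 were identical. The p-values measure only the spread between these libraries, which may be technical, since nothing says that each came from its own mouse. Values were given per library for genes called or with the 3 smallest p in each comparison, for Nfe2l2 and Keap1, and for the genes highest and lowest per length, and in ranges otherwise, with some pairs added after their values were seen. The genes and lists were chosen with earlier results of these data known.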

Additional observations from a re-analysis of the deposited data

Results flagged for a closer look

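In groups of 4 libraries, the gap between the extreme library and its nearest neighbour, divided by the range of the group, exceeded the 95% critical value of Dixon's test in 4 of 72 groups tested, close to the share of about 1 in 20 that chance gives. Gstm1 in db/db gave 0.884, from HOM_24 at 190 CPM against 34.2 to 52.2 CPM in the others. Txnrd1 in db/db gave 0.887, again from HOM_24, at 190 CPM against 112 to 121 CPM. Txnrd2 in CT db gave 0.880, from het_37 at 67.7 CPM against 47.5 to 49.9 CPM. Gss in db/db gave 0.943, from HOM_81 at 18.4 CPM against 14.5 to 14.7 CPM, a gap of few counts. Groups of 3 libraries were not tested.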

How the results depend on the processing

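No paired analysis was possible because the columns of the count table carry no replicate numbers of the labels. Of 105 alternative counts of called genes, 84 equalled or lay near the reported count, 13 were lower and 8 higher. A near count did not always hold the same genes. Without het_37, Gpx8, Gss and Mgst1 were called in CT ob against CT db, and Gclm was not. Alternative log2 fold changes of single genes were tallied only for chosen pairs of gene and comparison. Of these 828 values, 747 kept their direction and side of the threshold, 53 lost a call, 24 gained one and 4 reversed. The reversed values were Gstm1 (-0.33) and Gstm2 (-0.27) in db/db against CT db, each both without HOM_24 and without HOM_24 and obHet_68. Leaving out 1 library gave -0.33 to 0.80 for Gstm1 and -0.27 to 0.58 for Gstm2. Outside the chosen pairs, the estimates of Txn2 in db/db and of Txn1, Txn2 and Glrx in ob/ob also changed sign under some alternatives.

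Shares of all genes called are given in brackets. With no filter on low counts, edgeR called 1 of the 35 genes in db/db against CT db (0.947%) and 1 in ob/ob against CT ob (1.12%). It called 3 in ob/ob against db/db (1.54%), 5 in CT ob against CT db (4.97%) and 2 for the difference of the mutant effects (0.947%). DESeq2 called 1 in ob/ob against CT ob (0.692%) and 4 in CT ob against CT db (12.4%). For CT ob against CT db, where 2 were reported (6.63%), upper quartile scaling gave 1 (6.25%) and library size only gave 1 (2.11%). A fit of those control libraries alone gave 0 (0.0253%). Leaving out HOM_24 and obHet_68 together, an alternative chosen after seeing the data, gave 0 (0.703%). Leaving out 1 library gave 0 to 4 there (0.85% to 9.49%) and 0 in each other comparison (at most 0.0344%). The causes were not tested.

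Calls over all genes in CT ob against CT db were 834 as reported, 265 with library size only, 1727 with no filter, 1563 with DESeq2, 3 in the fit of controls alone, 92 without HOM_24 and obHet_68, and 112 to 1199 leaving out 1 library. No filter and DESeq2 called 270 and 44 genes in db/db against CT db (1 reported), 359 and 86 in ob/ob against CT ob (0 reported), 535 and 72 in ob/ob against db/db (2 reported), and 329 and 72 for the difference of the mutant effects (0 reported). The fit of the mutants alone called 4 in ob/ob against db/db, and library size only called 2 in db/db against CT db. Counting error alone makes levels under about 1.30 CPM uncertain, which touches Nqo1, Srxn1 and Gstt1.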
